A study of Mus musculus with 11 samples.

Results

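Hepatic stellate cells were followed here through 10 marker genes, namely Acta2, Des, Pdgfrb, Pdgfra, Lrat, Reln, Hand2, Colec11, Ngfr and Rgs5. They were taken by gene symbol from the 55414 genes of the deposited count table, and all 10 passed the filter on low counts, as did 17038 genes in all. RNA was sequenced from 11 samples of whole liver, each called a liver below, from male mice that all carried Clec4f-DTR. This is a receptor for diphtheria toxin (DT) that the promoter of Clec4f drives in the resident macrophages of the liver, the Kupffer cells. The 4 DT livers came from mice on western diet with alcohol that received DT in serial injections, the 4 saline livers from mice on that diet with serial injections of saline, and the 3 chow livers from mice on chow, whose titles name no injections. Diets began at an age of 8 weeks and ran for 16 weeks. Controls thus carried the receptor too, no DT-treated mice without it were analysed here, and injection cannot be told apart from diet in comparisons with chow. The titles number the replicates without saying that each is a separate mouse, so that p-values set a difference against the spread between these samples only.

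Stellate cells lie between the hepatocytes and the sinusoids of the liver and store most of the body's vitamin A as retinyl esters in lipid droplets. After injury they can become activated, which means that they lose those droplets, take on contractile filaments, respond to platelet-derived growth factor (PDGF) and lay down collagen. For the present comparison, Acta2, Des, Pdgfrb and Pdgfra were classed as activation-associated, and Lrat, Reln, Hand2, Colec11, Ngfr and Rgs5 as quiescence-associated. The classes were set for this comparison and are not strict, since quiescent mouse stellate cells also express Des and Pdgfrb, and Rgs5 and Acta2 also mark pericytes and smooth muscle. The placing of Ngfr, Rgs5 and Reln as quiescence-associated in particular is a choice made here and was not tested. In bulk RNA, a change in the number of stellate cells and a change in RNA per cell cannot be told apart.

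Library totals ran from 43995217 to 58089531 counts, and 3 counts corresponded to 0.0397 to 0.0772 CPM, the unit of counts scaled to library size. Clec4f itself had 9.06, 15.2, 7.51 and 6.17 CPM in DT livers 1 to 4, against 43.1 to 49.1 CPM in saline livers and 37.1 to 50.3 CPM in chow livers. DT liver 2 stood apart from the other DT livers. In a principal component analysis of the 500 genes that varied most, the leading component held 75.9% of the variance, and DT liver 2 lay at -14.2, while DT livers 1, 3 and 4 lay at 62.5 to 71.8, saline livers at -31.0 to -10.3 and chow livers at -34.6 to -28.5. Counts of called genes in DT against saline livers are therefore also given without it wherever they moved, while means, per-length ranks and summed levels of the DT group hold all 4 DT livers.

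All 4 activation-associated markers were higher in DT livers than in saline livers, by 2.21-fold for Des to 7.26-fold for Acta2. Each DT liver lay above each saline liver for all 4, as for 9.33% of all genes tested. DT liver 2 was only just above the highest saline liver for Pdgfra (7.41 against 7.30 CPM) and Pdgfrb (10.1 against 9.51 CPM). Of the 6 quiescence-associated markers, Hand2 rose and the other 5 did not pass the test. No marker fell, and 21.9% of all genes tested were called in this comparison. A pair of quiescence-associated markers, Lrat and Ngfr, rose in saline livers against chow livers, where 5.58% of all genes tested were called, and the Ngfr call ended when any 1 chow liver was left out. No activation-associated marker was called there, although Acta2 was with DESeq2 (adjusted p = 0.0493) and with only these 2 groups in the fit (adjusted p = 0.0471).

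Acta2 encodes alpha smooth muscle actin, the actin isoform of contractile filaments. It had 10.01, 9.90, 5.34 and 2.31 CPM in DT livers 1 to 4, against 0.611, 0.773, 1.54 and 0.851 CPM in saline livers 1 to 4 and 0.515, 0.327 and 0.138 CPM in chow livers 1 to 3. The group means were 6.89 ± 3.75 CPM in DT livers (SD, n = 4), 0.943 ± 0.408 CPM in saline livers (SD, n = 4) and 0.327 ± 0.188 CPM in chow livers (SD, n = 3). DT livers 1 and 2 were highest, DT liver 4 was lowest in its group, and no 2 of the 3 groups overlapped. DT against saline livers gave a log2 fold change of 2.86 (SE 0.50, adjusted p = 0.00667 by edgeR's quasi-likelihood test with Benjamini-Hochberg adjustment over all genes tested, as for every adjusted p below). It was 2.63 without DT liver 2 (adjusted p = 0.00223) and 2.01 without DT livers 1 and 2 (adjusted p = 0.00415). Chow livers held only 20, 16 and 6 counts of Acta2, so its level there is the least precise of the 10. Other actin genes share long stretches of sequence with Acta2, and reads could have been split between them.

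Promoter sequence of Acta2 is shown together with that of Myl9, a myosin light chain gene whose values ran with Acta2 across the DT livers, and with those of Pdgfra, which did not run with it, and Lrat, which did not pass the test between DT and saline livers. Each is the 250 bases before the annotated start in RefSeq (GRCm38.p6), printed on the strand of the gene. Of the 10 markers, 9 had an entry, and Pdgfrb had none. Capitals mark matches to the CArG box, the site of serum response factor, with up to 1 inner A or T replaced by G or C, and to CATTCC, the core site of TEAD factors, on either strand. The entries lie at chr19:34255374-34255623 (minus strand) for Acta2, chr2:156775214-156775463 (plus strand) for Myl9, chr5:75152001-75152250 (plus strand) for Pdgfra and chr3:82903975-82904224 (minus strand) for Lrat.
Acta2: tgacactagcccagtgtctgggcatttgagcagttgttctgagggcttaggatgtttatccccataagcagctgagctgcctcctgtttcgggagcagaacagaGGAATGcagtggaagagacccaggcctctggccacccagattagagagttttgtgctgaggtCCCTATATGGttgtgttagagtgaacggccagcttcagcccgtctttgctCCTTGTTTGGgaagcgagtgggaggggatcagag
Myl9: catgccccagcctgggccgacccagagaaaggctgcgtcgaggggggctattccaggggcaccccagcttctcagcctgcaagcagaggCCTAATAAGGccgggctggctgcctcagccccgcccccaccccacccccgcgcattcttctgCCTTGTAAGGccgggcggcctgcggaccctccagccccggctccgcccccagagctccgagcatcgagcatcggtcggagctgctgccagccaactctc
Pdgfra: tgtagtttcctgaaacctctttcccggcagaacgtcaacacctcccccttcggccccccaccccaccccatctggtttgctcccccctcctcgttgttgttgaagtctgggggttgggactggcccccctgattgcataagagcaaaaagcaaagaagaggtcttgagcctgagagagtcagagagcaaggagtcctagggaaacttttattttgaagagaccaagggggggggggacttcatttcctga
Lrat: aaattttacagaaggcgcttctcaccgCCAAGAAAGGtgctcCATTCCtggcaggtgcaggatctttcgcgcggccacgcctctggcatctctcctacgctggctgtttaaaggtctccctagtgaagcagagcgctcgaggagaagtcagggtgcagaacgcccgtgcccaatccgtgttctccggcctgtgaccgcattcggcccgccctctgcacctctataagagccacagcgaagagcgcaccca

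The Acta2 promoter held CCCTATATGG at 84 to 75 bases before the start and CCTTGTTTGG at 34 to 25 bases before it, and GGAATG, the reverse complement of CATTCC, at 146 to 141 bases before it. Myl9 held CCTAATAAGG at 161 to 152 bases and CCTTGTAAGG at 99 to 90 bases before the start. Lrat held CCAAGAAAGG at 223 to 214 bases and CATTCC at 208 to 203 bases before the start. No match lay in the 250 bases of Des, Pdgfra, Reln, Hand2, Ngfr, Colec11 or Rgs5, and no 2 matches overlapped. Over all 32851 promoters of the same length, 8.59% held the CArG pattern so widened, 1.47% held it without any replacement, and 12.6% held CATTCC. These motifs were chosen after the expression values had been seen, and a match describes letters, not binding.

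Des encodes desmin, an intermediate filament protein of muscle and stellate cells. It had 12.3, 8.28, 8.81 and 11.6 CPM in DT livers 1 to 4, against 4.30, 4.66, 5.96 and 3.62 CPM in saline livers 1 to 4 and 3.35, 3.36 and 4.43 CPM in chow livers 1 to 3. All DT livers lay above all saline livers, while saline and chow livers overlapped. Des rose in DT against saline livers by 1.14 on the log2 scale (SE 0.20, adjusted p = 0.00643) and by 1.23 without DT liver 2 (adjusted p = 0.000591), the smallest rise of the 4 activation-associated markers. Among DT livers Des was also the most even of the 4, with a highest liver 1.49 times the lowest.

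Pdgfrb encodes the receptor for PDGF-B, a mitogen of stellate cells. It had 45.1, 10.1, 31.5 and 42.1 CPM in DT livers 1 to 4, against 8.21, 7.73, 9.51 and 5.15 CPM in saline livers 1 to 4 and 5.97, 5.50 and 4.11 CPM in chow livers 1 to 3. DT liver 2 was close to the highest saline liver, and the other 3 DT livers were well above it. Pdgfrb rose in DT against saline livers by 2.07 on the log2 scale (SE 0.38, adjusted p = 0.00713), and 2.37 without DT liver 2 (adjusted p = 1.56e-05).

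Pdgfra encodes the other PDGF receptor chain, which is also strong in portal and other fibroblasts. It had 53.7, 7.41, 41.8 and 54.1 CPM in DT livers 1 to 4, against 5.83, 6.22, 7.30 and 4.68 CPM in saline livers 1 to 4 and 5.35, 5.61 and 5.86 CPM in chow livers 1 to 3. DT liver 2 again lay just above the saline livers, so that the highest DT liver was 7.31 times the lowest, the widest spread of the 10 markers. Pdgfra rose in DT against saline livers by 2.71 on the log2 scale (SE 0.46, adjusted p = 0.00624), and 3.05 without DT liver 2 (adjusted p = 8.03e-07).

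The 4 activation-associated markers thus did not order the DT livers in 1 way. DT liver 2 had nearly the highest Acta2 and the lowest Pdgfra, Pdgfrb and Des, while DT liver 4 had the lowest Acta2 and the highest Pdgfra. Counts of Acta2 per count of Pdgfrb were 0.222, 0.983, 0.169 and 0.0547 in DT livers 1 to 4, against 0.0744 to 0.165 in saline livers and 0.0337 to 0.0862 in chow livers. The Acta2 ratios of DT livers 1, 2 and 3 were above all 4 saline livers, that of DT liver 3 only just, and that of DT liver 4 was below them. Counts of Pdgfra per count of Pdgfrb were 1.19, 0.736, 1.33 and 1.28 in DT livers 1 to 4, against 0.710 to 0.909 in saline livers and 0.897 to 1.43 in chow livers. For this ratio DT livers 1, 3 and 4 were above all saline livers and within the chow range, and DT liver 2 was within the saline range.

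**Figure D1:**
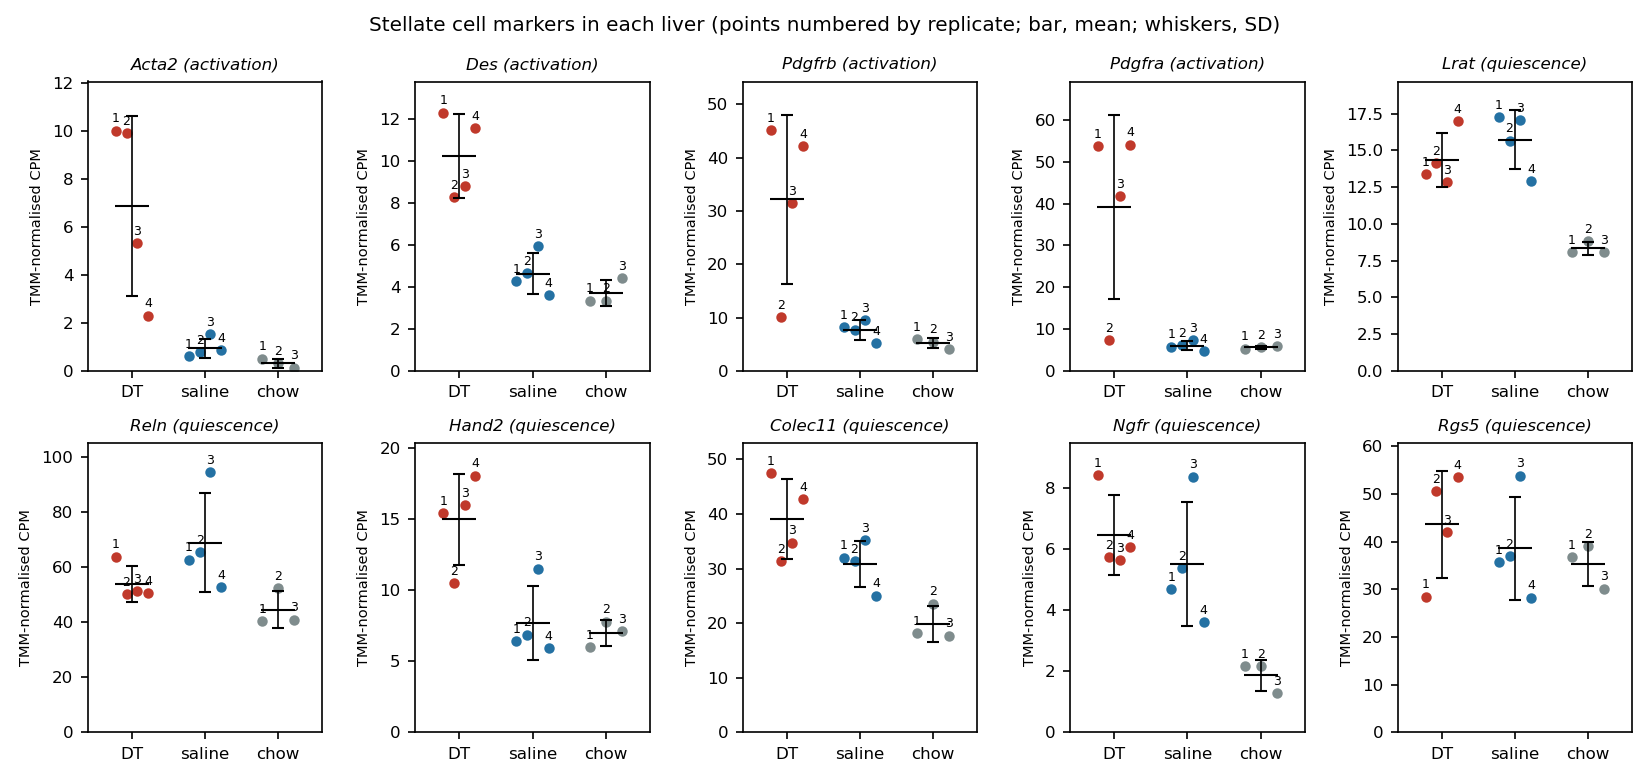
TMM-normalised CPM (vertical axis, from 0) of the 10 markers in DT, saline and chow livers, with points numbered by replicate, a bar for the mean and whiskers for the SD (n = 4, 4 and 3). All DT livers lie above all saline livers for Acta2, Des, Pdgfrb and Pdgfra, and DT liver 2 is at 9.90 CPM for Acta2 but at 7.41 CPM for Pdgfra.

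Lrat encodes lecithin retinol acyltransferase, the enzyme that esterifies retinol for storage. It had 13.4, 14.1, 12.8 and 17.0 CPM in DT livers 1 to 4, against 17.3, 15.7, 17.1 and 12.9 CPM in saline livers 1 to 4 and 8.08, 8.84 and 8.07 CPM in chow livers 1 to 3. DT and saline livers covered nearly the same range, and both lay wholly above chow livers. The log2 fold change of DT against saline livers was -0.13 (SE 0.13, adjusted p = 0.471), and its sign turned under total count scaling (0.21, adjusted p = 0.329). Saline livers against chow livers gave 0.92 (SE 0.14, adjusted p = 0.00487), a 1.89-fold difference.

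Reln encodes reelin, a secreted glycoprotein that stellate cells make in the liver. It had 63.8, 50.2, 51.2 and 50.5 CPM in DT livers 1 to 4, against 62.6, 65.3, 94.4 and 52.6 CPM in saline livers 1 to 4 and 40.4, 52.2 and 40.9 CPM in chow livers 1 to 3. DT liver 1 and saline liver 3 stood above the rest of their groups, and DT livers overlapped with saline and with chow livers. The log2 fold change was -0.35 for DT against saline livers (SE 0.17, adjusted p = 0.159) and 0.63 for saline against chow livers (SE 0.19, adjusted p = 0.0773).

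Hand2 encodes a transcription factor of mesenchymal cells. It had 15.4, 10.5, 16.0 and 18.0 CPM in DT livers 1 to 4, against 6.44, 6.87, 11.5 and 5.92 CPM in saline livers 1 to 4 and 5.97, 7.77 and 7.13 CPM in chow livers 1 to 3. DT liver 2 lay below saline liver 3, and the other 3 DT livers lay above all saline livers. Hand2 rose in DT against saline livers by 0.96 on the log2 scale (SE 0.23, adjusted p = 0.0150), and 1.10 without DT liver 2 (adjusted p = 0.00186). Hand2 was the only quiescence-associated marker that rose in this comparison. The gene Hand2os1 lies over it on the other strand, and since the strand setting of the counting is not stated, reads of this pair cannot be told apart.

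Colec11 encodes collectin-11, a soluble lectin that can start the lectin pathway of complement. It had 47.5, 31.3, 34.8 and 42.7 CPM in DT livers 1 to 4, against 32.0, 31.3, 35.2 and 25.0 CPM in saline livers 1 to 4 and 18.2, 23.5 and 17.7 CPM in chow livers 1 to 3. DT livers 1 and 4 were above the saline livers, the other DT livers were among them, and chow livers were below both groups. The log2 fold change of DT against saline livers was 0.34 (SE 0.16, adjusted p = 0.135), which passed the test without DT liver 2 (0.43, adjusted p = 0.0374) and with scaling by total counts (0.69, adjusted p = 0.0229). Saline against chow livers gave 0.64 (SE 0.17, adjusted p = 0.0539).

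Ngfr encodes the p75 neurotrophin receptor. It had 8.42, 5.74, 5.65 and 6.07 CPM in DT livers 1 to 4, against 4.68, 5.37, 8.37 and 3.62 CPM in saline livers 1 to 4 and 2.16, 2.17 and 1.29 CPM in chow livers 1 to 3. DT and saline livers overlapped, and all 8 lay above the chow livers. The log2 fold change was 0.23 for DT against saline livers (SE 0.27, adjusted p = 0.557). It was 1.56 for saline against chow livers (SE 0.31, adjusted p = 0.0153), a 2.94-fold rise. That call ended without chow liver 1, 2 or 3 (adjusted p = 0.0552, 0.0537 and 0.0646, with log2 fold changes of 1.67, 1.68 and 1.35).

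Rgs5 encodes a regulator of G-protein signalling found in pericytes as well as stellate cells. It had 28.5, 50.6, 42.1 and 53.5 CPM in DT livers 1 to 4, against 35.6, 37.0, 53.8 and 28.3 CPM in saline livers 1 to 4 and 36.7, 39.1 and 30.2 CPM in chow livers 1 to 3. All 3 groups overlapped. The log2 fold change was 0.17 for DT against saline livers (SE 0.22, adjusted p = 0.587) and 0.13 for saline against chow livers (SE 0.24, adjusted p = 0.812).

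DT livers were compared with saline livers to ask how markers differed on the same diet once DT had been given to mice with the receptor. Of the 10 markers, 5 rose (Acta2, Des, Pdgfrb, Pdgfra and Hand2), none fell and 5 did not pass the test, while 21.9% of all genes tested were called, 14.3% as higher and 7.62% as lower. The 4 markers whose groups did not overlap, all higher in DT livers, stand beside 9.33% of all genes tested that did so in that direction and 9.97% in the other, 19.3% together. The median log2 fold change was 2.39 for the activation-associated markers, 0.20 for the quiescence-associated markers and 0.02 for all genes tested. Without DT liver 2 the count was 6 of 10, with Colec11 added, while 40.3% of all genes were called. Lrat, Reln, Ngfr and Rgs5 were then at log2 fold changes of -0.13, -0.32, 0.28 and 0.10 (adjusted p = 0.492, 0.196, 0.454 and 0.776). Scaling by total counts in place of TMM moved the median of all genes by 0.36, and the calls of the 5 markers were kept under it.

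Saline livers were compared with chow livers to ask what differed with western diet and alcohol, with the injections, while no DT was given. Here 2 of the 10 markers rose, Lrat and Ngfr, both classed here as quiescence-associated, none fell and 8 did not pass the test, while 5.58% of all genes tested were called, 2.45% as higher. Saline livers lay wholly above chow livers for 5 markers (Acta2, Lrat, Reln, Colec11 and Ngfr), as for 14.8% of all genes tested, and 30.4% of them did not overlap in either direction. Acta2 was 2.90-fold higher by the fit without passing the test (log2 fold change 1.54, SE 0.59, adjusted p = 0.161). The median log2 fold change was 0.44 for the activation-associated markers, 0.63 for the quiescence-associated markers and 0.00 for all genes tested. DT livers enter the estimate of the spread in this comparison too, and with only saline and chow livers in the fit Acta2 and Colec11 were called as well (adjusted p = 0.0471 and 0.00875). Without DT liver 2 the markers called were Lrat, Ngfr and Colec11 (adjusted p = 0.0220 for Colec11), while 11.4% of all genes were called.

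Against chow livers, 8 of the 10 markers rose in DT livers, none fell, and Reln and Rgs5 did not pass the test, while 23% of all genes tested were called, 14.8% as higher. All 8 lay wholly above chow livers, as did 14.8% of all genes tested, while 29.2% of all genes tested did not overlap in either direction. The log2 fold changes were 4.40 for Acta2, 2.81 for Pdgfra, 2.63 for Pdgfrb, 1.79 for Ngfr, 1.47 for Des, 1.11 for Hand2, 0.98 for Colec11 and 0.78 for Lrat, with adjusted p from 0.00306 for Acta2 to 0.0116 for Hand2. The Hand2 call ended without chow liver 1 (adjusted p = 0.0556), and without DT liver 2 the same 8 markers were called. The 3 comparisons share livers, so that these values are not independent of those above.

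**Figure D2:**
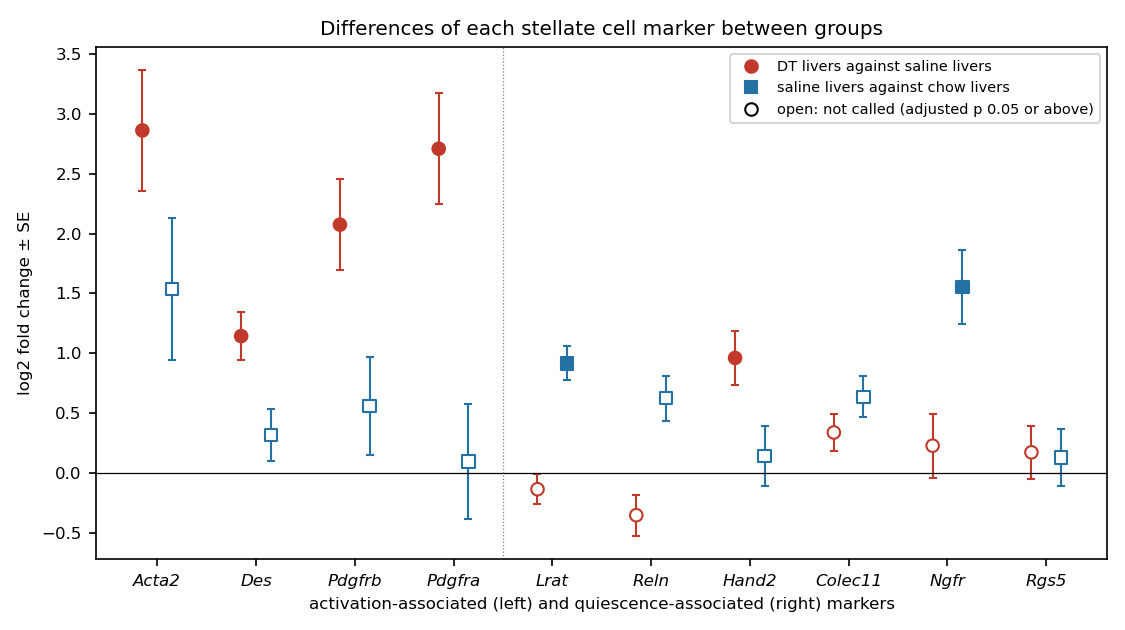
Log2 fold change with its SE (vertical axis) of each marker, activation-associated on the left and quiescence-associated on the right, for DT against saline livers (circles) and saline against chow livers (squares), with filled symbols for an adjusted p below 0.05. Filled circles are Acta2, Des, Pdgfrb, Pdgfra and Hand2, and filled squares are Lrat and Ngfr.

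To set both classes side by side in each liver, the mean log2 CPM of the 6 quiescence-associated markers was taken from that of the 4 activation-associated markers. The difference was 0.02, -1.19, -0.41 and -0.64 log2 units in DT livers 1 to 4, against -2.42, -2.35, -2.35 and -2.31 in saline livers 1 to 4 and -2.10, -2.48 and -2.38 in chow livers 1 to 3. All 4 DT livers lay above the other 7, and saline and chow livers overlapped. DT livers averaged -0.55 ± 0.50 (SD, n = 4), saline livers -2.36 ± 0.05 (SD, n = 4) and chow livers -2.32 ± 0.20 (SD, n = 3). Between DT and saline livers the activation mean differed by 2.02 and the quiescence mean by 0.22. Between saline and chow livers both means differed by about as much, 0.61 for activation and 0.64 for quiescence, so that their difference moved by -0.04. No test was made on these means, since the markers were chosen with results known.

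**Figure D3:**
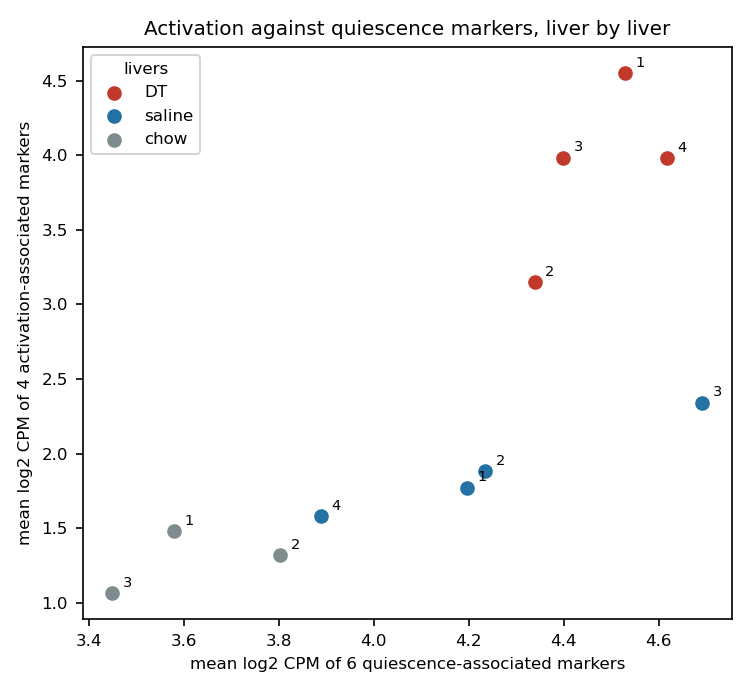
Mean log2 CPM of the 6 quiescence-associated markers (horizontal axis) and of the 4 activation-associated markers (vertical axis), 1 point a liver, numbered by replicate. DT livers lie at 3.15 to 4.55 on the activation axis, above saline livers at 1.58 to 2.34 and chow livers at 1.06 to 1.48, while on the quiescence axis DT livers at 4.34 to 4.62 fall within saline livers at 3.89 to 4.69.

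Levels can be set between genes only per length, here as CPM per kilobase of exon in GENCODE vM21. Colec11 had the highest level in every group, at 24.1 in DT livers, 19.0 in saline livers and 12.2 in chow livers, and Rgs5 was next, at 9.60 in DT livers, 8.51 in saline livers and 7.77 in chow livers. Acta2 was the lowest of the 10 in saline livers (0.429) and chow livers (0.149), and had rank 6 in DT livers (3.14). Pdgfrb and Pdgfra had ranks 4 and 5 in DT livers (5.88 and 3.92), while saline livers held 1.40 and 0.599 and chow livers 0.948 and 0.559. Hand2 had rank 3 in every group, at 6.37 in DT livers, 3.27 in saline livers and 2.96 in chow livers. In DT livers, Colec11 lay above Rgs5 in every liver and each later neighbour in the order overlapped with the next, namely Rgs5, Hand2, Pdgfrb, Pdgfra, Acta2, Des, Lrat, Reln and Ngfr. In saline livers the order after Hand2 was Lrat, Reln, Ngfr, Pdgfrb, Des, Pdgfra and Acta2, with gaps free of overlap after Colec11, Rgs5 and Des. In chow livers it was Reln, Lrat, Des, Pdgfrb, Pdgfra, Ngfr and Acta2, with gaps after Colec11, Rgs5, Hand2, Reln, Lrat, Pdgfrb and Ngfr.

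By the highest Pearson correlation of log2 CPM over the 11 livers, the genes most like Acta2 were Tagln (0.977), Myh11 (0.940), Myl9 (0.935), Emp3 (0.932) and Slc50a1 (0.928). Of these, Tagln, Myh11 and Myl9 encode proteins of the contractile apparatus of smooth muscle. The genes most like Lrat were Cd36 (0.951), Arsb (0.950), Tceal8 (0.948), Morc4 (0.941) and Ephb2 (0.940), where Cd36 is a fatty acid transporter. Among the markers, Pdgfrb and Pdgfra were closest (0.973), Acta2 had 0.672 with Pdgfra, and Lrat had 0.509 with Acta2. The livers form 3 groups that differ in these genes, so these values describe the libraries and were not tested.

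The contractile genes Tagln, Myl9 and Myh11, picked for their likeness to Acta2 over these same livers, put the DT livers in the same order as Acta2 did. Tagln, an actin-binding protein of smooth muscle, had 11.2, 10.8, 8.43 and 4.93 CPM in DT livers 1 to 4, against 2.55 to 5.58 CPM in saline livers and 1.89 to 2.62 CPM in chow livers. Myl9 had 5.94, 5.85, 3.01 and 2.12 CPM in DT livers 1 to 4, against 0.652 to 1.59 CPM in saline livers and 0.655 to 0.784 CPM in chow livers. Myh11, the smooth muscle myosin heavy chain, had 15.7, 11.02, 9.56 and 4.68 CPM in DT livers 1 to 4, against 1.66 to 3.66 CPM in saline livers and 1.84 to 2.42 CPM in chow livers. For all 3, DT livers 1 and 2 were the highest and DT liver 4 the lowest, and only Tagln had a DT liver, liver 4, within the saline range. Of the 10 contractile and cytoskeletal genes listed, 6 rose in DT against saline livers (Tagln, Myl9, Cnn2, Tpm1, Vim and Flna), none fell and 4 did not pass the test, with a median log2 fold change of 0.80. Over all genes tested, 14.3% rose and 7.62% fell in this comparison. Vim, an intermediate filament gene, differed from Tagln in that DT liver 2, at 25.3 CPM, was within the saline livers (17.2 to 26.3 CPM) and DT livers 1, 3 and 4 were at 84.1 to 100.5 CPM. Cnn2, Tpm1 and Flna were like Vim in that DT liver 2 lay within the saline range and the other 3 DT livers above it. Tpm2, a tropomyosin gene, went the other way, with 5.88, 16.5, 5.67 and 5.27 CPM in DT livers 1 to 4, against 14.0 to 18.6 CPM in saline livers and 2.27 to 3.51 CPM in chow livers. DT liver 2 was again within the saline livers, and without it Tpm2 fell (log2 fold change -1.51, adjusted p = 5.56e-05), which made the count of this list 6 higher and 1 lower. In that fit 40.3% of all genes were called.

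Of the 10 smooth muscle and pericyte markers, 9 were tested and 7 rose in DT against saline livers (Myh11, Cnn1, Lmod1, Notch3, Mcam, Kcnj8 and Mustn1), none fell, and 14.3% of all genes tested rose. The summed level of the markers was 66.6 to 108.8 CPM in DT livers, against 42.04 to 69.6 CPM in saline livers and 36.2 to 46.7 CPM in chow livers. The Cnn1 call rested on DT liver 2, which had 1.75 CPM, while DT livers 1, 3 and 4 had 0.0265 to 0.298 CPM and saline livers 0 to 0.0407 CPM. Without that liver Cnn1 did not pass the filter on low counts, and Abcc9 rose (log2 fold change 0.62, adjusted p = 0.0211), while 40.3% of all genes were called. Lmod1, a smooth muscle protein that nucleates actin filaments, had 1.88, 1.75, 2.74 and 1.75 CPM in DT livers 1 to 4, against 0.285 to 0.326 CPM in saline livers and 0.277 to 0.515 CPM in chow livers. Of 5 actin relatives, 4 were tested, and Actg2, the enteric smooth muscle actin, was called in DT against saline livers. It had 0.477, 1.33, 0.367 and 0.0530 CPM in DT livers 1 to 4, while 3 of the 4 saline livers were at 0 and the other at 0.0426 CPM. Without DT liver 2 Actg2 did not pass the filter, while Actg1 and Actc1 rose (adjusted p = 0.0134 and 0.0243), and under total count scaling Actg2, Actg1 and Actc1 all rose. Beside these calls, 40.3% of all genes were called without DT liver 2. Total count scaling called 5625 of the 17038 genes tested, most of them as higher. Whether smooth muscle of vessels had a part in the Acta2 values was not tested.

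Of the 14 matrix genes of activated stellate cells, 12 rose in DT against saline livers, none fell, and Timp1 and Postn did not pass the test, with a median log2 fold change of 2.49. Of all genes tested, 21.9% were called in this comparison, 14.3% as higher. Timp1 rose as well without DT liver 2 (adjusted p = 0.0463), where 40.3% of all genes were called. Col1a1, a chain of type I collagen, had 70.7, 11.1, 76.2 and 94.2 CPM in DT livers 1 to 4, against 5.57 to 14.9 CPM in saline livers and 3.24 to 4.71 CPM in chow livers. Loxl1, which crosslinks elastin and collagen, had 20.6, 3.33, 17.4 and 25.1 CPM in DT livers 1 to 4, against 1.39 to 3.05 CPM in saline livers and 0.461 to 1.02 CPM in chow livers. DT liver 2 was within the saline livers for Col1a1 and just above them for Loxl1. Mmp2, a matrix metalloproteinase gene, rose by 3.32 (SE 0.60, adjusted p = 0.00690), and Col6a3, a chain of type VI collagen, by 3.08 (SE 0.55, adjusted p = 0.00678), and without DT liver 2 these were 3.68 and 3.44. In saline against chow livers none of the 14 passed the test by edgeR, and 4 had an unadjusted p below 0.05, but 7 rose when DT liver 2 was left out of the shared spread. The share of all genes called went from 5.58% to 11.4% when that liver was left out.

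**Figure D4:**
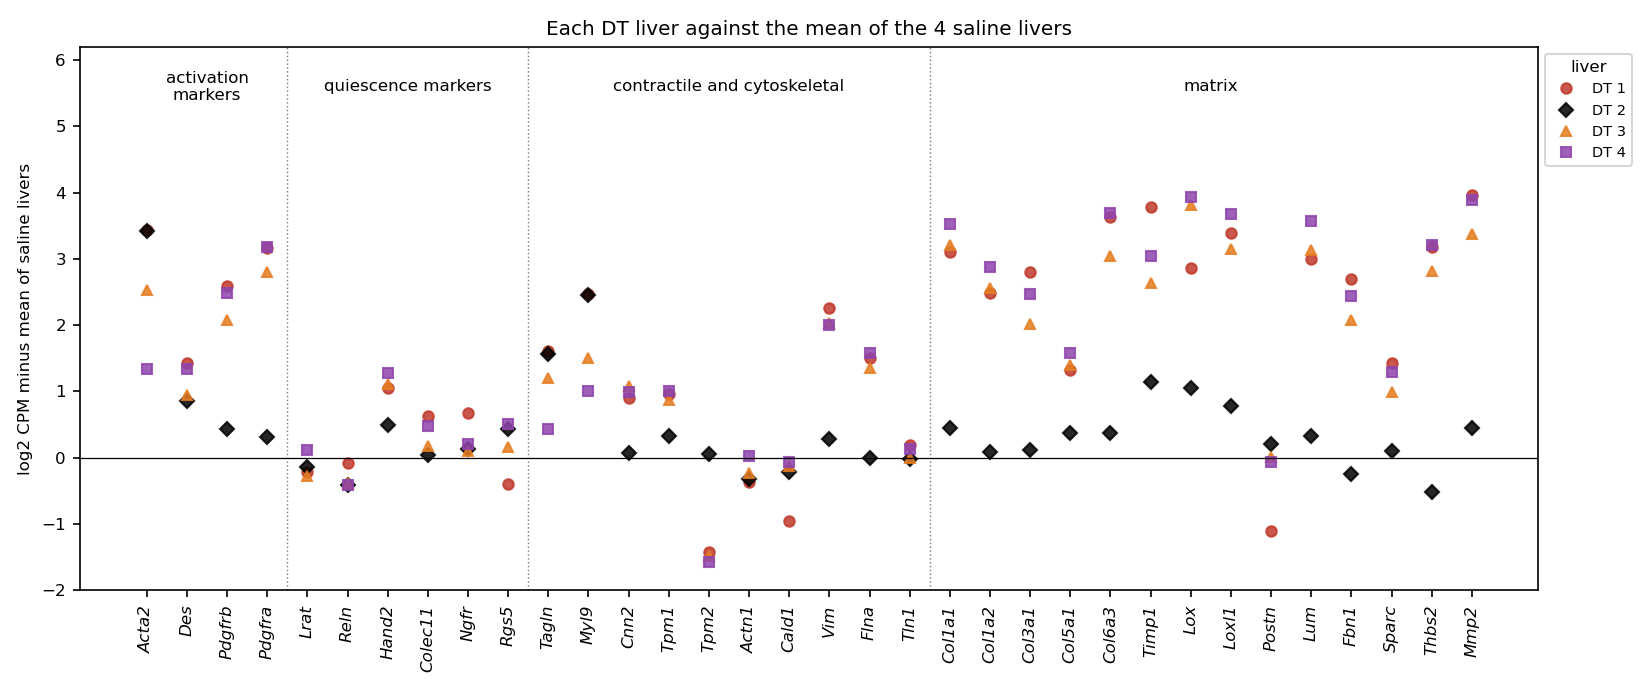
Log2 CPM of each DT liver minus the mean of the 4 saline livers (vertical axis) for the 4 activation markers, the 6 quiescence markers, 10 contractile and cytoskeletal genes and 14 matrix genes, 1 symbol a liver. DT liver 2 (diamonds) is at 3.42 for Acta2, 1.56 for Tagln and 2.45 for Myl9, where it covers DT liver 1 for Acta2 and Myl9, and at 0.32 for Pdgfra and 0.45 for Col1a1.

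PDGF ligands were measured beside their receptors. Of 5 such genes, 4 rose in DT against saline livers (Pdgfb, Pdgfc, Pdgfd and Pdgfrl, a receptor-like gene), none fell and Pdgfa did not pass the test (log2 fold change 0.63, adjusted p = 0.0527), with a median log2 fold change of 1.57. The share of all genes tested that rose was 14.3%. Pdgfa did rise without DT liver 2 (adjusted p = 0.0109) and under total count, upper quartile and RLE scaling (adjusted p = 0.0159, 0.0356 and 0.0486). Over all genes, 40.3% were called without DT liver 2. Under those scalings 5625, 3820 and 3761 genes were called, against 3734 with TMM. Pdgfb, the ligand of Pdgfrb, had 8.16, 2.29, 7.88 and 9.92 CPM in DT livers 1 to 4, against 2.596 to 3.30 CPM in saline livers and 0.875 to 1.60 CPM in chow livers. Pdgfd, another ligand of Pdgfrb, had 4.36, 1.79, 6.82 and 11.6 CPM in DT livers 1 to 4, against 1.49 to 1.97 CPM in saline livers and 0.830 to 1.39 CPM in chow livers. Ligands and receptors were thus both low in DT liver 2 and high in the other 3 DT livers. In saline against chow livers none of the 5 passed the test by edgeR, 2 had an unadjusted p below 0.05, and 1 rose without DT liver 2. In that last fit 11.4% of all genes were called.

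Of 8 genes of transforming growth factor beta, which drives matrix production in stellate cells, 3 rose in DT against saline livers (Tgfb2, Tgfb3 and its target Ccn2) and none fell, while 14.3% of all genes tested rose. Without DT liver 2, 5 of the 8 rose, while 40.3% of all genes were called. Tgfb2 had 3.48, 0.541, 4.47 and 5.96 CPM in DT livers 1 to 4, against 0.244 to 0.489 CPM in saline livers and 0.138 to 0.257 CPM in chow livers. Under total count scaling 7 of the 8 rose, while 5625 genes were called, against 3734 with TMM.

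Of the 13 partners of Ngfr, Reln and Colec11, 3 rose in DT against saline livers, among them the neurotrophin gene Ntf3 and the neurotrophin receptor gene Ntrk3, and none fell. Since 21.9% of all genes tested were called, 14.3% as higher, this count does not set the partners apart. Ntf3 had 1.19, 0.499, 1.69 and 1.56 CPM in DT livers 1 to 4, against 0.146 to 0.468 CPM in saline livers and 0.412 to 0.491 CPM in chow livers. DT liver 2 was just above the saline livers. Without it 5 of the 13 partners were higher and 4 lower, while 40.3% of all genes were called. In saline against chow livers, where 5.58% of all genes tested were called, 2 of the 13 rose. These were Ntrk2 and Vldlr, picked out after their values were seen. Ntrk2, a receptor that can act together with Ngfr, was at 24.6 to 36.9 CPM in saline livers, against 4.07, 4.03 and 0.507 CPM in chow livers (log2 fold change 3.36, adjusted p = 0.00405), and at 38.6 to 49.9 CPM in DT livers. Vldlr, a receptor of reelin and of lipoproteins, was at 7.32 to 11.1 CPM in saline livers, against 0.515, 0.573 and 2.12 CPM in chow livers (log2 fold change 3.13, adjusted p = 0.00381).

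Of 15 other stellate cell genes, 6 rose in DT against saline livers, among them Cygb, Prelp, Tcf21, Dcn and Bambi, none fell and 9 did not pass the test, with a median log2 fold change of 0.26. For all genes tested, 14.3% rose and 7.62% fell. Cygb, a globin gene of stellate cells, had 49.2, 13.3, 47.7 and 52.8 CPM in DT livers 1 to 4, against 7.73 to 14.3 CPM in saline livers and 5.90 to 7.86 CPM in chow livers. Without DT liver 2 the count of this list was 7 higher and 5 lower, where with it none was lower, while 40.3% of all genes were called. The 5 were Ecm1, Angptl6, Vipr1, Hhip and Pth1r. In saline against chow livers 1 of the 15 rose, Sod3, an extracellular superoxide dismutase (log2 fold change 0.72, adjusted p = 0.0449), and 3 rose without DT liver 2. The shares called over all genes were 5.58% with that liver and 11.4% without it.

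Of 11 genes of retinoid storage and signalling, 10 were tested. In DT against saline livers Cyp26a1, which breaks down retinoic acid, rose, and 2 fell, the lipase gene Lipe and the receptor gene Rxra, with a median log2 fold change of 0.11. Among all genes tested 21.9% were called, 14.3% as higher and 7.62% as lower. Cyp26a1 had 35.7, 7.55, 6.27 and 10.5 CPM in DT livers 1 to 4, against 2.85 to 5.63 CPM in saline livers and 2.13 to 3.06 CPM in chow livers. Rxra was at 337.7 to 493.6 CPM in DT livers, against 557.4 to 676.8 CPM in saline livers and 506.3 to 651.1 CPM in chow livers. Under total count scaling neither Lipe nor Rxra was called (adjusted p = 0.256 and 0.115), and 3 genes of this list were higher and 1 lower, namely Aldh1a1, a retinaldehyde dehydrogenase gene (log2 fold change -0.94, adjusted p = 0.0459). That scaling called 5625 of the 17038 genes tested, most of them as higher, so these counts do not set the list apart. Leaving out DT liver 2 gave 3 higher and 4 lower, while 40.3% of all genes were called. Some of these genes are also expressed by hepatocytes. In saline against chow livers none of the 10 passed the test by edgeR, while 2 had an unadjusted p below 0.05 and 1 was lower without DT liver 2. In that last fit 11.4% of all genes were called.

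Markers of cells other than stellate cells moved with the DT group as well. Of 11 portal fibroblast markers, 9 rose in DT against saline livers, none fell, and the median log2 fold change was 2.82. Beside the counts of this paragraph, 14.3% of all genes tested rose, and 40.3% were called without DT liver 2. Leaving out DT liver 2 made the count 10, where Thy1 and Entpd2 were added and Clec3b did not pass the filter. The summed level of the portal fibroblast markers was 28.6 to 155.7 CPM in DT livers, against 11.4 to 19.2 CPM in saline livers and 8.83 to 11.4 CPM in chow livers. Eln, which encodes elastin, had 34.6, 6.34, 22.4 and 29.1 CPM in DT livers 1 to 4, against 1.22 to 2.27 CPM in saline livers and 1.34 to 1.78 CPM in chow livers. All 5 cholangiocyte markers rose, with a summed level of 8.22 to 90.2 CPM in DT livers, against 3.49 to 6.69 CPM in saline livers and 9.13 to 17.8 CPM in chow livers. The single genes that rose in the mesothelial list (4 of 6 tested) and the lymphatic list (5 of 5 tested) were Wt1 and Ccl21a, and in the Schwann cell list (5 of 6 tested) Mbp and Scn7a rose. Lrrn4 of the mesothelial list and Pdpn of the lymphatic list rose too when DT liver 2 was left out. Sox10, the defining factor of Schwann cells, was at 0 in all livers but DT liver 3, which had 0.0565 CPM. The parts of these cell types in the marker values were not tested.

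Of the 6 endothelial markers, 3 fell in DT against saline livers (Stab2, Kdr and Tek), with a summed level of 205.9 to 226.3 CPM in DT livers, against 265.5 to 283.8 CPM in saline livers and 242.1 to 289.3 CPM in chow livers, but under total count scaling none passed the test. With TMM, 7.62% of all genes tested fell and 14.3% rose. All 6 Kupffer cell markers fell, at a summed 110.7 to 184.0 CPM in DT livers, against 264.6 to 369.7 CPM in saline livers and 252.6 to 333.1 CPM in chow livers, and 5 of them fell under total count scaling. Of the 7 hepatocyte markers Cyp2e1 fell and none rose, while Ttr fell too without DT liver 2 (log2 fold change -0.84, adjusted p = 0.00392) and 1 rose under total count scaling. Over all genes, 40.3% were called without DT liver 2, and 5625 of the 17038 tested under total count scaling. The hepatocyte markers stood at a summed 63578 to 88493 CPM in DT livers, against 87852 to 101034 CPM in saline livers and 100529 to 126754 CPM in chow livers. Alb, the albumin gene of hepatocytes, was at 47564 to 61976 CPM in DT livers, against 54182 to 71689 CPM in saline livers.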

How the data were processed

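RNA was measured in 11 samples of whole liver. The extraction text of the labels describes CD45-positive cells for single-cell work, while the sample labels name whole liver tissue. The deposited values are raw counts per gene, made by the authors with FastQC, STAR and featureCounts on GRCm39, per the submitters' processing notes. Versions, strand setting and the handling of mates are not given in the sources used here. Of counts up to 20, 76.6% to 81.5% were even in each library, so both mates may have been counted, and halved counts were tried. Overlapping annotated genes on the other strand, which could share reads, were found for Lrat (Rbm46os), Hand2, Des, Pdgfra and Reln, and beyond the markers for Tagln (Pcsk7) and Colec10. On the same strand, Dnaja1-ps, Gm19666 and Gm16113 overlapped with Reln and Mir7025 with Pdgfra, and these could share reads under any strand setting.

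Genes were kept by filterByExpr and tested with edgeR 4.0.16 (limma 3.58.1, R 4.3.3), which fitted a quasi-likelihood model with TMM factors, 1 mean per group over all 3 groups, robust estimates and 8 residual degrees of freedom. The biological coefficient of variation was 30.1%. Tests were two-sided, with Benjamini-Hochberg adjustment over 17038 genes, and called means an adjusted p below 0.05. Log2 CPM used a prior count of 2. Each SE was worked back from the test, as the size of the log2 fold change over the square root of its quasi-likelihood F value. In the text, rose and fell are used for called genes. The CPM worth of 3 counts covers counting error only.

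The members and the 19 lists (153 entries) were chosen with earlier results of these data known. The named genes are the 10 markers, Clec4f, up to 4 genes per list with the smallest p in DT against saline livers, and the 5 genes most like Acta2 and Lrat among genes whose log2 CPM averaged 0 or more. Others, such as those of short counts, were named after their values were seen. Alternatives were RLE, upper quartile and total count scaling, DESeq2 1.42.0, limma-voom, no filter, 1 CPM in 3 livers, only the 2 groups compared, a replicate block, and each liver or DT livers 1 and 2 left out. List counts without these livers were added after seeing the data. Fits were also run on simulated counts, which held no outlying liver such as DT liver 2 and so do not cover that case. No 2 libraries were copies. Western diet without alcohol was not analysed here. Some genes of the lists are counted but not reported here.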

Additional observations from a re-analysis of the deposited data

Results flagged for a closer look

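Within groups of 4 livers, 2 values of the markers lay far from the other 3, by the gap to the nearest liver as a share of the group's range on the log2 CPM scale. Pdgfra was at 2.90 in DT liver 2, while the other DT livers were at 5.39 to 5.76, a gap of 0.869 of the range. Reln was at 5.996 in DT liver 1, while the other DT livers were at 5.65 to 5.68, a gap of 0.915 of the range. In all, 22 groups of values were examined, and chance alone marks about 1 group in 20.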

How the results depend on the processing

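Each comparison was refitted under 22 alternatives. The calls of Acta2, Des, Pdgfrb, Pdgfra and Hand2 in DT against saline livers and of Lrat in saline against chow livers were kept in all 22. Pdgfra in DT against chow livers lost its call with limma-voom (adjusted p = 0.0528). DT against saline livers gave 5625 called genes under total count scaling, 2303 with only the 2 groups compared and 7895 without DT livers 1 and 2. Saline against chow livers gave 1739 with DESeq2, 3105 with only the 2 groups, 559 with the replicate block and 3311 without DT livers 1 and 2, with 5, 4, 2 and 4 markers called. DT against chow livers gave 6535 under total count scaling, 2089 with only the 2 groups, 2210 with the replicate block and 7827 without DT livers 1 and 2. Total count scaling made 5177 calls higher and 448 lower in DT against saline livers, where TMM made 2436 and 1298. Leaving out 1 liver gave 1786 to 6824 genes and 5 to 6 markers for DT against saline livers, 287 to 1924 genes and 1 to 3 markers for saline against chow livers, and 1786 to 6834 genes and 7 to 8 markers for DT against chow livers. The activation minus quiescence difference then ran from 1.61 to 2.02, from -0.12 to 0.08 and from 1.58 to 1.98. Signs turned for Lrat in DT against saline livers under total count scaling (0.21) and, without saline liver 3, for Hand2 (-0.10) and Rgs5 (-0.048) in saline against chow livers, which both ran up to 0.25 without saline liver 4. The cause was not tested. Same-numbered livers had correlations of deviations of -0.16 to 0.18 over 10 pairs, with 5 of 11 livers closest to their own number. These values were not tested, so they do not settle whether the replicate numbers pair the livers. The replicate block gave 2847 genes in DT against saline livers and the same number of called markers as the main fit in all 3 comparisons.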

Other observations

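Some stellate cell genes were far lower in DT livers 1, 3 and 4 than in DT liver 2, which lay among the saline livers or, for Colec10, just below them, a pattern picked out after the values were seen. Colec10, whose product pairs with that of Colec11 in the lectin pathway, had 1.46, 23.9, 2.22 and 1.27 CPM in DT livers 1 to 4, against 25.1, 34.1, 37.4 and 26.2 CPM in saline livers 1 to 4 and 17.5, 22.4 and 19.7 CPM in chow livers 1 to 3. Counts of Colec10 per count of Colec11 were 0.0308, 0.761, 0.0638 and 0.0298 in DT livers 1 to 4, against 0.783 to 1.09 in saline livers and 0.953 to 1.11 in chow livers. With all livers Colec10 did not pass edgeR's quasi-likelihood test (log2 fold change -2.11, adjusted p = 0.0827), and without DT liver 2 it was called lower (-4.22, adjusted p = 1.51e-06).

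Hhip, an inhibitor of hedgehog signals, had 0.269, 2.70, 0.169 and 0.0795 CPM in DT livers 1 to 4, against 2.00 to 3.29 CPM in saline livers and 1.94 to 2.46 CPM in chow livers. Without DT liver 2 its log2 fold change of DT against saline livers was -4.01 (adjusted p = 2.07e-05), where with all livers it was -1.83 (adjusted p = 0.130). Angptl6, an angiopoietin-like gene, had 3.70, 15.1, 3.03 and 2.44 CPM in DT livers 1 to 4, against 8.41 to 16.3 CPM in saline livers and 7.70 to 12.0 CPM in chow livers, with a log2 fold change of -2.03 without DT liver 2 (adjusted p = 0.000133) and -1.05 with it (adjusted p = 0.150). In the same 3 DT livers Colec11, Ngfr and Hand2 were at 34.8 to 47.5, 5.65 to 8.42 and 15.4 to 18.0 CPM, against saline ranges of 25.0 to 35.2, 3.62 to 8.37 and 5.92 to 11.5 CPM, none of them below. Rgs5, at 28.5 to 53.5 CPM, was within the saline range of 28.3 to 53.8 CPM. Lrat, at 12.8 to 17.0 CPM, was within the saline range of 12.9 to 17.3 CPM except that DT liver 3 was just below it. Reln, at 50.5 to 63.8 CPM, was below the saline range of 52.6 to 94.4 CPM in DT livers 3 and 4.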
